A study of Mus musculus with 30 samples.

Results

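The genes described here are the ligands and receptors of the 4 classical axon guidance systems, measured in cultures of mouse embryonic telencephalon that did or did not carry Xbp1 and that were or were not given brain-derived neurotrophic factor (BDNF). Members were the genes whose platform symbol begins with Sema, Plxn, Slit, Robo, Unc5, Epha, Ephb, Efna or Efnb, together with Ntn1, Ntn4, Dcc, Nrp1 and Nrp2; Sema3e, Plxnd1 and the Slitrk genes were left out. The rule found 55 genes among the 12394 on the array that have a probe set of their own. Of these, 29 encode ligands and 25 encode receptors. The remaining gene, Unc50, is caught by the letters of its symbol and is not a netrin receptor, so counts are also given without it.

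All cultures came from embryos at embryonic day 12.5 of matings between Xbp1+/- mice. The telencephalic cells of 6 Xbp1-/- embryos were pooled, as were those of 4 Xbp1+/+ embryos, and each pool was plated at low density in serum-free Neurobasal medium. There are 6 groups of 5 dishes and 1 Affymetrix Mouse Genome 430A 2.0 array per dish. Basal dishes received no BDNF and were lysed on day 4 in vitro; BDNF dishes received 100 ng/ml on the third day in vitro and were lysed 24 h later, on day 4, or 48 h later, on day 5. No unstimulated dish was lysed on day 5, so in the 48 h comparisons the factor and the extra day cannot be told apart. Because each genotype is a single pool, genotype and pool cannot be told apart either, and every p-value measures only the spread between dishes of a pool.

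Axon guidance works through secreted or membrane-bound cues that a growth cone reads with dedicated receptors. Class 3 semaphorins bind neuropilins, which signal through plexins, while the transmembrane and lipid-anchored semaphorins bind plexins directly. Slits repel axons through Robo receptors, and netrins attract through Dcc or repel when Unc5 receptors take part. Ephrins and Eph receptors sit on opposing membranes and can signal in both directions, A-type ephrins through a lipid anchor and B-type ephrins as transmembrane proteins. In the embryonic telencephalon these systems guide cortical and thalamic axons and steer migrating interneurons. XBP1 switches on genes that help the endoplasmic reticulum cope with unfolded proteins, and BDNF acts through the TrkB receptor.

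Values are the log2 of a probe set's signal over the median signal of its array, so 0 is the array median and 1 is double that signal. They compare dishes for a given gene; they do not rank genes against each other, because probe sets differ in brightness for the same amount of RNA. In bulk RNA, fewer cells of a type and less RNA per cell cannot be told apart. A gene was tested if its mean signal lay in the upper 60% of genes, which kept 7436 genes and 31 members, 16 ligands, 14 receptors and Unc50. A difference is called when the Benjamini-Hochberg adjusted p of limma's moderated test, over all 7436 genes, is under 0.05, and "rose", "fell", "higher" and "lower" are used in that sense for tested differences.

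The 24 members under the signal filter are Dcc, Ntn4, Slit3, Robo3, Robo4, Plxna1, Plxnb3, Sema3b, Sema3c, Sema3f, Sema5b, Sema6b, Sema6c, Sema6d, Efna1, Efna2, Efna4, Efna5, Epha1, Epha2, Epha6, Epha8, Ephb4 and Ephb6. Dcc, the attractive netrin receptor, ranged from -3.32 to -0.61 over the 30 arrays. Ntn4, a netrin of basement membranes, lay at the floor of 0.1 of the array median in 29 of 30 arrays, and Ephb4, known from blood vessels, did so in 21. Efna5 was at the floor in 17 arrays and Plxna1 in 13. The probe sets kept after the filter hold 5 of 13 A-type ephrin and Eph genes, 4 of 6 B-type genes, 6 of 8 plexins and neuropilins, 3 of 6 Slit and Robo genes, 3 of 5 netrin-system genes, 1 of 4 class 3 semaphorins and 8 of 12 other semaphorins.

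Some arrays stood apart. Array medians before scaling ran from 81.9 to 138. The ratio of 3' to 5' Gapdh signal, which rises as RNA or its copies shorten, was 2.17 to 2.68 in the 48 h arrays and 2.57 to 3.05 in all others, with 8 of the 48 h arrays below that second range. Because the ratio and the 48 h groups largely go together, a fit with the ratio as covariate cannot cleanly separate them. A 48 h call lost in that fit does not show to which of the 2 the change belongs. At 48 h, deviations from the group mean correlated over genes at -0.51 to -0.32 between replicates 1 and 2 and replicates 3 to 5. This range covers both genotypes. Deviations from a mean of the same 5 dishes lean negative by construction, so the sign alone does not set dishes apart. Replicates 1 and 2 correlated with each other at 0.086 in wild type and 0.20 in knockout, and at 0.12 to 0.25 across genotypes. The part of these differences in the 48 h results was not tested beyond the values given beside them. Xbp1 was 0.22 higher in knockout than in wild-type basal dishes (adjusted p = 0.00498). At 24 h and 48 h the difference was 0.075 and 0.10 and was not called. The removed part of the gene is not given in the labels, and a probe set outside it does not check the genotype.

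After 24 h of BDNF in wild-type dishes, 3 members rose and 3 fell, 6 of 31, against 14.4% of all tested genes (8.04% higher and 6.4% lower). The rises were Unc5b, a repulsive netrin receptor, Plxna2, a plexin that signals for class 3 and class 6 semaphorins, and Slit2, a Slit ligand. The falls were Sema4g, a transmembrane semaphorin, Nrp1, the co-receptor that binds Sema3a, and Epha5, a receptor for A-type ephrins. In 3 members the dishes of the groups did not overlap, against 10.5% of all tested genes. Under quantile normalization 3 members rose and 5 fell, under 75th-percentile scaling 3 rose and 6 fell, and with the values as deposited 1 rose and 2 fell.

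Unc5b read 0.96, 0.51, 0.57, 0.84 and 0.76 in the wild-type basal dishes and 1.23, 1.12, 1.39, 1.44 and 1.30 after 24 h. The groups did not overlap, and the mean rose by 0.57 ± 0.10 (SE; 1.48-fold; adjusted p = 8.58e-05). After 48 h it read 1.23, 1.05, 0.96, 1.23 and 1.21, which is 0.41 ± 0.10 above basal (adjusted p = 0.00133). The lowest 48 h dish and the highest basal dish meet at the same rounded value.

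Plxna2 read 1.53, 1.38, 1.18, 1.46 and 1.38 in wild-type basal dishes, 1.77, 1.89, 1.67, 1.87 and 1.75 at 24 h, and 1.94, 2.05, 2.08, 2.00 and 1.81 at 48 h. All stimulated wild-type dishes lay above all basal ones. The rise was 0.40 ± 0.11 at 24 h (adjusted p = 0.00927) and 0.59 ± 0.11 at 48 h (adjusted p = 7.93e-05), and the 24 h call was lost with the values as deposited (0.40, adjusted p = 0.0766). Slit2 read 3.07, 2.92, 3.13, 3.53 and 3.14 in basal dishes, 3.47, 3.33, 3.39, 3.41 and 3.46 at 24 h, and 3.71, 3.58, 3.55, 3.60 and 3.61 at 48 h. Basal replicate 4 was as high as the 24 h dishes, and no basal dish reached the 48 h range. Slit2 rose by 0.25 ± 0.07 at 24 h (adjusted p = 0.0148) and by 0.45 ± 0.07 at 48 h (adjusted p = 1.17e-05); without basal replicate 2 the 24 h difference was 0.19 (adjusted p = 0.0671).

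The 250 bases upstream of the annotated start of these 3 genes, which rose at both times in wild-type dishes, are shown from RefSeq (GRCm38.p6), 5' to 3' on the gene's strand. Capitals mark a match to the EGR motif GCGTGGGCG; EGR factors are among the early genes that neurotrophins induce.

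Plxna2, chr1:194619579-194619828, plus strand: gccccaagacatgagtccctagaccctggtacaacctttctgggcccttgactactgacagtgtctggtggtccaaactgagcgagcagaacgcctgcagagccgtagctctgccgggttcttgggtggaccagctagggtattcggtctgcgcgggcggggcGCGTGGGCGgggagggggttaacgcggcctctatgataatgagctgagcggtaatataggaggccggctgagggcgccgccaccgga

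Slit2, chr5:47982905-47983154, plus strand: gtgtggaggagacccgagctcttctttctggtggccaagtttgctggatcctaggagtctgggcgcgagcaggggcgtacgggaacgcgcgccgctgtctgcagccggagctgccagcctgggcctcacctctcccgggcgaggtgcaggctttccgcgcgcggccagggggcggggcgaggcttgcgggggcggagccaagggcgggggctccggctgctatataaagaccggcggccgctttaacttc

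Unc5b, chr10:60831582-60831831, minus strand: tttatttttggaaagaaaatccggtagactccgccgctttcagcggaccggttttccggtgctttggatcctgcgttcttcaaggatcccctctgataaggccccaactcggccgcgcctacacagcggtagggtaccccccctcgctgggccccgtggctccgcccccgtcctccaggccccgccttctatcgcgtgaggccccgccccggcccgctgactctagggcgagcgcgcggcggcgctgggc

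Letters of 4 motifs were searched on both strands of the 60 upstream windows listed for 47 of the members. The EGR motif GCGTGGGCG was in the windows of Plxna2 and Efna3, and in 0.536% of the 32851 windows of that length in the RefSeq table. The cyclic AMP response element TGACGTCA was in that of Epha2 (1.546% of all windows), and the AP-1 site TGACTCA in that of Sema6b (4.463%). The unfolded protein response element TGACGTGG was in none of the 60 member windows (0.563% of all windows). The Plxna2 window holds no match to the other 3 motifs, so no matches overlap there. A match describes letters only.

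After 48 h of BDNF in wild-type dishes, 5 members rose and 12 fell relative to the array median, 17 of 31, against 36.2% of all tested genes (20.5% higher and 15.7% lower). The groups did not overlap in 12 members, against 19.7% of all tested genes. The median change of the tested members was -0.13, that of all tested genes 0.02. The direction of the falls depends on the scaling. With the values as deposited, where the median of all tested genes itself moved by 0.34, 10 members rose and none fell, and Epha7, Unc5c, Plxna3 and Sema7a turned to small positive values. Under quantile normalization and under 75th-percentile scaling the split was 3 rises and 14 falls. When probe sets were averaged by gene it was 7 rises and 7 falls among 32 tested members, with the Gapdh ratio as covariate 3 and 7, and with 48 h replicates 1 and 2 alone 3 and 6. Without Unc50, 4 members rose and 12 fell.

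Beyond Plxna2, Slit2 and Unc5b, Robo1, the Slit receptor of cortical and commissural axons, rose by 0.28 ± 0.11 (adjusted p = 0.0465), and Unc50 rose by 0.14 ± 0.05 (adjusted p = 0.0268). Robo1 read 2.48, 2.34, 2.29, 2.36 and 2.37 in basal dishes and 2.74, 2.50, 2.60, 2.75 and 2.63 at 48 h, without overlap. Its call was lost on leaving out any 1 of 8 of the 10 dishes (differences of 0.25 to 0.29, adjusted p up to 0.102), the exceptions being basal replicate 1 and 48 h replicate 2. The Unc50 call was lost without basal replicate 1 or 5 or 48 h replicate 3, 4 or 5 (0.12 to 0.14, adjusted p up to 0.0756), and another of its probe sets read -0.01.

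The larger wild-type falls at 48 h, all relative to the array median and none called with the values as deposited, were of Ntn1, Efnb1, Plxnb2, Epha4, Nrp1 and Ephb3. Ntn1, the secreted netrin of the floor plate and ganglionic eminence, read -0.25, -0.31, -0.24, -0.18 and 0.16 in basal dishes and -0.42, -0.32, -1.29, -0.75 and -1.02 at 48 h. The groups only just separate, and replicates 3 to 5 carry the larger drop. The difference was -0.60 ± 0.16 (adjusted p = 0.00328) over all dishes, -0.21 with 48 h replicates 1 and 2 alone (adjusted p = 0.500) and -0.86 with replicates 3 to 5 alone (adjusted p = 1.46e-04). With the Gapdh ratio in the model it was -0.52 and not called (adjusted p = 0.0671).

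Efnb1, a transmembrane ephrin, read 1.87, 1.90, 1.72, 2.18 and 1.69 in basal dishes, 1.53, 1.80, 1.96, 1.77 and 1.73 at 24 h, and 1.42, 1.46, 1.27, 1.26 and 1.21 at 48 h. The 24 h dishes overlap the basal ones, and every 48 h dish lies below both. The 48 h difference was -0.54 ± 0.09 from basal (adjusted p = 1.33e-05) and -0.43 ± 0.09 from 24 h (adjusted p = 0.00156). Its 2 other probe sets also fell from basal, by 0.40 and 0.44 on the log2 scale. Plxnb2, a receptor for class 4 semaphorins, read 2.87, 2.80, 2.74, 2.77 and 2.99 in basal dishes and 2.46, 2.55, 2.10, 2.39 and 2.23 at 48 h. It fell by 0.49 ± 0.08 from basal (adjusted p = 1.83e-05) and by 0.30 ± 0.08 from 24 h (adjusted p = 0.0122), the latter lost without 48 h replicate 3 (-0.24, adjusted p = 0.0637).

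Nrp1 read 4.33, 4.35, 4.27, 4.19 and 4.12 in wild-type basal dishes, 4.12, 3.79, 3.80, 3.92 and 3.79 at 24 h and 3.88, 3.91, 3.69, 3.88 and 3.76 at 48 h. It was lower in stimulated dishes by 0.37 ± 0.08 at 24 h (adjusted p = 0.00232) and 0.43 ± 0.08 at 48 h (adjusted p = 1.51e-04), with 24 h replicate 1 level with the lowest basal dish. Epha4, a receptor that binds ephrins of both types, read 2.57, 2.30, 2.25, 2.29 and 2.33 in basal dishes and 2.00, 1.87, 1.61, 1.82 and 2.02 at 48 h, a fall of 0.48 ± 0.10 (adjusted p = 2.26e-04) that its other probe set shows too, at -0.50. Epha5 moved down and back: 3.71, 3.79, 3.82, 3.77 and 3.76 in basal dishes, 3.67, 3.55, 3.46, 3.39 and 3.46 at 24 h, and 3.57, 3.72, 3.93, 3.94 and 3.76 at 48 h. The 24 h fall was 0.26 ± 0.09 (adjusted p = 0.0364), and the 48 h dishes were 0.28 ± 0.09 above the 24 h ones (adjusted p = 0.0294). Both Epha5 calls were unstable: the first was lost without any 1 of 7 dishes (basal replicates 2 to 5, 24 h replicates 3 to 5; adjusted p up to 0.0916), the second without any 1 of 5 (24 h replicates 3 to 5, 48 h replicates 3 and 4; adjusted p up to 0.0983). The other Epha5 probe set gave -0.26 for the first, not called, and 0.01 for the second.

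Sema4g read 1.92, 1.68, 1.46, 1.60 and 1.69 in wild-type basal dishes and 1.23, 0.90, 1.13, 1.51 and 1.51 at 24 h, a fall of 0.42 ± 0.11 (adjusted p = 0.0113). At 48 h it read 1.56, 1.42, 1.45, 1.34 and 1.19. That difference was no longer called, though limma put Sema4g below basal at an unadjusted p under 0.05. The other wild-type falls at 48 h were Nrp2 (-0.33), the neuropilin of Sema3f, Sema5a (-0.33), a semaphorin with thrombospondin repeats, Plxna3 (-0.31), a plexin partner of neuropilins, Unc5c (-0.27), a netrin receptor of the Unc5 group, Epha7 (-0.26), an ephrin-A receptor, and Sema7a (-0.23), the lipid-anchored semaphorin. Ephb3, a receptor for B-type ephrins, fell by 0.37 ± 0.15 (adjusted p = 0.0474). That Ephb3 call was lost without basal replicate 1, 2 or 3 or 48 h replicate 1, 4 or 5 (-0.38 to -0.24, adjusted p up to 0.205). The calls of Sema7a, Unc5c and Sema5a were each lost without single dishes as well: Sema7a without 6 (basal replicates 1, 2 and 5, 48 h replicates 3 to 5), Unc5c without 5 (basal replicates 1 to 3, 48 h replicates 3 and 5) and Sema5a without 3 (basal replicates 2 and 3, 48 h replicate 1), with adjusted p up to 0.0863, 0.0772 and 0.0923.

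Between 24 h and 48 h in wild-type dishes 1 member, Epha5, rose and 3 fell, Efnb1, Epha4 and Plxnb2, 4 of 31 against 13.9% of all tested genes (8.32% higher and 5.58% lower). The groups did not overlap in 3 members, against 7.84% of all tested genes. Epha4 fell by 0.34 ± 0.10 (adjusted p = 0.0156), lost without 24 h replicate 2 (-0.27, adjusted p = 0.0592) or 48 h replicate 3 (-0.28, adjusted p = 0.0703). Without 48 h replicate 3 the count of calls was 1. These falls too are relative to the array median. With the values as deposited, where the median of all tested genes itself moved by 0.33, 15 members rose and none fell. Under quantile normalization none rose and 3 fell. Once the Gapdh ratio was a covariate none was called, in a fit that does not cleanly separate the ratio from the 48 h dishes. By receptor and ligand, 8 of the 14 tested receptors fell and 3 rose at 48 h in wild-type dishes, and 4 of the 16 ligands fell and 1 rose, beside 15.7% of all tested genes lower and 20.5% higher; the difference between receptors and ligands was not tested.

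**Figure D1:**
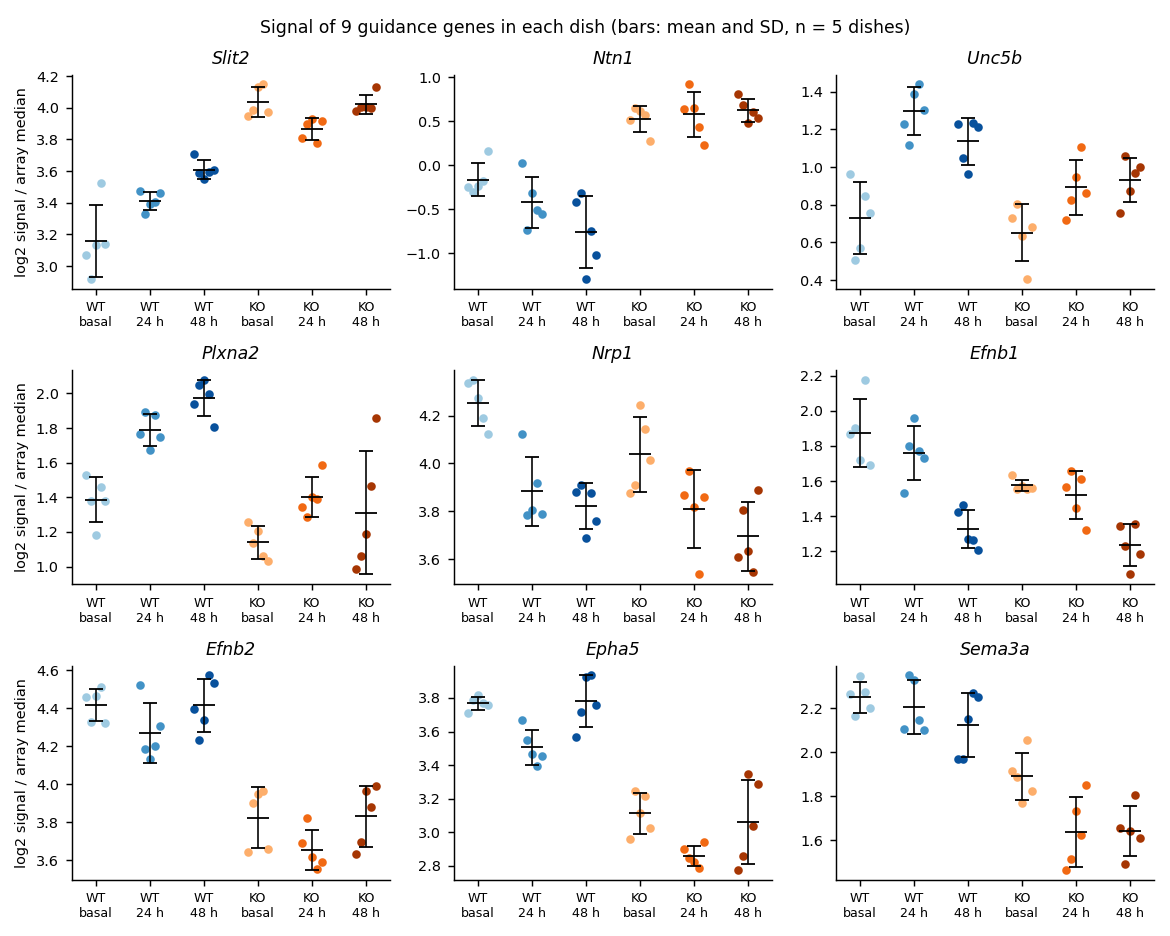
Log2 signal over the array median (vertical axis) of 9 guidance genes in each of the 30 dishes, by genotype and BDNF time; points are dishes, horizontal marks the means and bars the SD of 5 dishes. Slit2 in all knockout dishes lies above all wild-type dishes, Efnb2 and Epha5 lie below them, and Efnb1 is lowest at 48 h in both genotypes relative to the array median.

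In knockout dishes 24 h of BDNF left no member called higher and 3 lower by limma's test. That is 3 of 31, against 11.5% of all tested genes (5.96% higher and 5.55% lower). At an unadjusted p under 0.05 limma gave 3 higher and 7 lower. The share of all tested genes at that unadjusted threshold was not counted. The falls were Unc5c (-0.49 ± 0.09, adjusted p = 6.05e-04), Epha7 (-0.33 ± 0.08, adjusted p = 0.00486) and Sema3a, the secreted class 3 semaphorin (-0.25 ± 0.08, adjusted p = 0.0384). Unc5c read 2.29, 2.31, 2.49, 2.22 and 2.42 in knockout basal dishes and 2.00, 1.95, 1.95, 1.80 and 1.56 at 24 h, without overlap. The groups did not overlap in 4 members, against 9.32% of all tested genes. The Sema3a call was lost without any 1 of 6 dishes (basal replicates 1, 2 and 4, 24 h replicates 1, 2 and 4; adjusted p up to 0.118), and without basal replicate 5 the comparison called 5 members. Quantile normalization and 75th-percentile scaling each called 5 members lower, and the values as deposited called 1. None of the 3 wild-type rises or 3 wild-type falls at 24 h was among the knockout calls. Such a count does not test a difference in response, which was called for no member at 24 h. At an unadjusted p under 0.05, limma put Unc5b and Plxna2 above basal and Nrp1 and Epha5 below it in the knockout, as in wild type. It put Slit2 below basal, opposite to wild type.

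After 48 h in knockout dishes 1 member rose and 8 fell relative to the array median. That is 9 of 31, against 28.9% of all tested genes (19.4% higher and 9.47% lower). With the values as deposited, where the median of all tested genes itself moved by 0.29, 5 rose and none fell. Under quantile normalization and 75th-percentile scaling none rose, and 9 and 10 fell. When probe sets were averaged by gene 3 rose and 7 fell, and with the Gapdh ratio as covariate none rose and 5 fell. The rise was Unc5b, by 0.28 ± 0.10 (adjusted p = 0.0281), which was lost without basal replicate 4 or 48 h replicate 2, 4 or 5 (0.22 to 0.27, adjusted p up to 0.102). The falls were Nrp2 (-0.47 ± 0.09), Unc5c (-0.47 ± 0.09), Epha7 (-0.37 ± 0.08), Plxna3 (-0.36 ± 0.09), Efnb1 (-0.34 ± 0.09), Nrp1 (-0.34 ± 0.08), Plxnb2 (-0.30 ± 0.08) and Sema3a (-0.25 ± 0.08). Their adjusted p lay between 2.94e-04, for Nrp2, and 0.0207, for Sema3a. The Sema3a call was lost without basal replicate 4 or 48 h replicate 2 (-0.21 each, adjusted p of 0.0692 and 0.0637). In 5 members the groups did not overlap, against 18.7% of all tested genes.

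Nrp2 read 2.10, 1.99, 2.02, 1.93 and 1.61 in knockout basal dishes and 1.42, 1.42, 1.49, 1.38 and 1.56 at 48 h; basal replicate 5 is the nearest to the 48 h range and remains above it. Efnb1 read 1.63, 1.56, 1.57, 1.56 and 1.56 in basal dishes and 1.35, 1.23, 1.07, 1.35 and 1.18 at 48 h, again without overlap. Of the 12 wild-type falls, 7 (58.3%) were also called in the knockout, where they made up 87.5% of the 8 falls: Nrp1, Nrp2, Plxnb2, Plxna3, Unc5c, Epha7 and Efnb1. Both lists were counted against each genotype's own basal dishes. The same overlap was not counted for all tested genes, so these percentages have no background beside them. Of all tested genes 15.7% fell in wild type and 9.47% in knockout. Of the 6 tested neuropilins and plexins, 4 were lower at 48 h in each genotype and Plxna2 was higher in wild type; their median change was -0.32 in wild type and -0.32 in knockout, beside 0.02 and 0.04 for all tested genes.

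Between 24 h and 48 h in the knockout no member was called higher and 3 were lower, against 9.84% of all tested genes called (7.49% higher and 2.35% lower). The groups did not overlap in 2 members, against 8.59% of all tested genes. At an unadjusted p under 0.05 limma gave 3 higher and 6 lower, with no share of all tested genes counted at that threshold. Plxnb2 fell by 0.34 ± 0.08 (adjusted p = 0.00759). Efnb1 fell by 0.28 ± 0.09 (adjusted p = 0.0355), lost without 24 h replicate 1, 2 or 4 or 48 h replicate 2, 3 or 5 (adjusted p up to 0.115). Sema6a, a transmembrane semaphorin, fell by 0.57 ± 0.18 (adjusted p = 0.0414), lost without 8 of the 10 dishes (all but 24 h replicate 1 and 48 h replicate 4; adjusted p up to 0.116). The count was 1 without 24 h replicate 2 or 4 or 48 h replicate 2, 3 or 5. With the values as deposited, where the median of all tested genes itself moved by 0.23, 6 members rose and none fell.

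The difference between the genotypes in the response was tested as an interaction. At 24 h limma called no member, against 0.0941% of all tested genes (0.0269% higher and 0.0672% lower). An unadjusted p under 0.05 was found for 5 members, with no share of all tested genes counted at that threshold. The 2 members with the smallest adjusted p were Slit2 (-0.42, 95% confidence interval -0.63 to -0.22, adjusted p = 0.0898) and Sema7a (0.30, 0.05 to 0.55, adjusted p = 0.640). Without wild-type basal replicate 4 the count was 1. At 48 h Slit2 was the called member, 1 of 31 against 0.134% of all tested genes (0.0672% in each direction). In knockout dishes it read 3.95, 3.99, 4.13, 4.15 and 3.97 at basal and 3.98, 4.00, 4.00, 4.00 and 4.13 at 48 h, so the groups overlap throughout while the wild-type dishes rose. The knockout response was lower than the wild-type response by 0.47 ± 0.10 on the log2 scale (adjusted p = 0.0490).

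That Slit2 call sits at the threshold. It was lost on leaving out any 1 of 19 of the 20 dishes, the exception being wild-type basal replicate 4, with differences of -0.49 to -0.41 among the losses and adjusted p up to 0.142. The direction was negative in each of the 32 alternatives run, and 27 of them lost the call. Averaging the Slit2 probe sets gave the smallest difference, -0.28 (adjusted p = 0.681). Ntn1 (0.70, interval 0.25 to 1.14, adjusted p = 0.363) and Plxna2 (-0.42, interval -0.73 to -0.11, adjusted p = 0.510) had the next smallest adjusted p at 48 h and were not called. For Efnb1 the interval of the difference ran from -0.05 to 0.46 and for Nrp1 from -0.15 to 0.33, so the genotypes were not distinguished there and differences of that size remain possible.

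**Figure D2:**
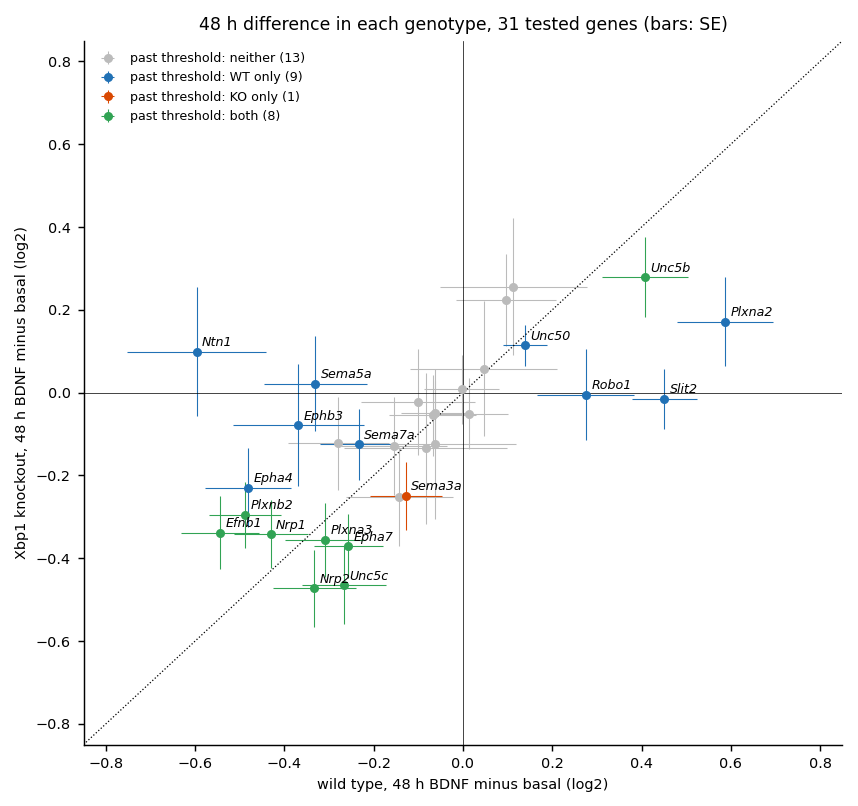
Change from basal to 48 h of BDNF in wild-type dishes (horizontal axis) and in Xbp1 knockout dishes (vertical axis) for the 31 tested members, log2 relative to the array median, with SE bars from the fit and the line of equal change dotted. Past the threshold are 8 members in both genotypes, 9 in wild type alone and 1 in knockout alone. The same split was not counted for all tested genes. The falls at lower left hold relative to the array median and none is called with the values as deposited. With those values Epha7, Unc5c, Plxna3 and Sema7a turn positive in wild type.

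Knockout and wild-type dishes differed at every time. At basal, 4 members were higher and 11 lower in the knockout, 15 of 31, against 27.9% of all tested genes (9.2% higher and 18.7% lower). At 24 h it was 4 higher and 10 lower, against 26.2% (8.43% higher and 17.8% lower), and at 48 h 4 higher and 7 lower, against 24.1% (9.68% higher and 14.4% lower). The groups did not overlap in 10, 11 and 7 members, against 18.9%, 17.7% and 16.7% of all tested genes. The median difference of the members was -0.21, -0.21 and -0.19, beside -0.09, -0.09 and -0.07 for all tested genes. With the values as deposited the splits were 4 higher and 3 lower, 5 and 4, and 3 and 4; under 75th-percentile scaling they were 4 and 8, 5 and 7, and 4 and 4. Without wild-type 48 h replicate 5 the 48 h count was 7. The unstimulated and stimulated comparisons use separate dishes of the same 2 pools.

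In all, 3 members were higher in the knockout at all 3 times, Slit2, Ntn1 and Epha7, and 4 were lower, Efnb2, Epha5, Sema3a and Slit1. For Slit2, Ntn1, Epha7, Efnb2 and Epha5, none of the 15 wild-type dishes overlapped any of the 15 knockout dishes. The shares of all tested genes that meet these conditions were not counted, so these numbers have no background beside them.

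Slit2 lay between 2.92 and 3.71 in the wild-type dishes and between 3.77 and 4.15 in the knockout dishes. It was higher in the knockout by 0.88 ± 0.07 at basal (1.84-fold, adjusted p = 1.05e-11), 0.46 ± 0.07 at 24 h (adjusted p = 8.51e-06) and 0.41 ± 0.07 at 48 h (adjusted p = 3.56e-05). The 48 h difference with replicates 1 and 2 alone was 0.34 (adjusted p = 0.0649), and averaging its probe sets ended the 24 h call (0.23, adjusted p = 0.0788). Slit1, the Slit made by neurons, went the other way: it read 0.73, 0.84, 0.84, 0.60 and 0.95 in wild-type basal dishes and 0.30, 0.54, 0.47, 0.15 and 0.29 in knockout ones. Slit1 was lower by 0.45 ± 0.11 at basal (adjusted p = 0.00275), 0.58 ± 0.11 at 24 h (adjusted p = 1.68e-04) and 0.32 ± 0.11 at 48 h (adjusted p = 0.0345). The 48 h call of Slit1 was lost without wild-type replicate 1, 2 or 5 or knockout replicate 1, 4 or 5 (-0.32 to -0.26, adjusted p up to 0.117).

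Ntn1 read 0.51, 0.65, 0.62, 0.57 and 0.27 in knockout basal dishes, 0.64, 0.92, 0.65, 0.44 and 0.23 at 24 h and 0.81, 0.68, 0.48, 0.61 and 0.53 at 48 h. All of these lie above the highest wild-type dish, at 0.16. The difference was 0.69 ± 0.16 at basal (1.61-fold, adjusted p = 0.00107), 0.997 ± 0.16 at 24 h (adjusted p = 6.94e-06) and 1.38 ± 0.16 at 48 h (2.61-fold, adjusted p = 1.31e-08). Of its receptors, Unc5c was higher in knockout basal dishes by 0.28 ± 0.09 (adjusted p = 0.0239), lost without wild-type replicate 4 (0.19, adjusted p = 0.118) or knockout replicate 3 (0.24, adjusted p = 0.0706), and Unc5b was lower in the knockout at 24 h by 0.40 ± 0.10 (adjusted p = 0.00195).

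Efnb2, the ephrin of arteries and of cortical progenitors, read 4.46, 4.33, 4.46, 4.51 and 4.33 in wild-type basal dishes and 3.64, 3.90, 3.95, 3.97 and 3.66 in knockout ones. The difference was -0.59 ± 0.08 at basal (0.663 of the wild-type signal, adjusted p = 1.05e-06), -0.61 ± 0.08 at 24 h (adjusted p = 6.52e-07) and -0.58 ± 0.08 at 48 h (adjusted p = 1.40e-06). Its second bright probe set gave -0.51, -0.64 and -0.55. After BDNF no Efnb2 difference from basal was called, at -0.15 and -0.0026 in wild type and -0.17 and 0.0081 in knockout at 24 h and 48 h. Efnb1 was lower in the knockout at basal by 0.30 ± 0.09 (adjusted p = 0.0108; -0.22 and adjusted p = 0.0565 without wild-type replicate 4) and at 24 h by 0.24 ± 0.09 (adjusted p = 0.0428). The 24 h call was lost without wild-type replicate 2, 3, 4 or 5 or knockout replicate 1, 3 or 5 (adjusted p up to 0.135). Efnb3, the third B-type ephrin, was lower at basal by 0.20 ± 0.08 (adjusted p = 0.0491), a call lost without any 1 of 9 of the 10 dishes, the exception being wild-type replicate 4 (adjusted p up to 0.107).

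Among Eph receptors, Epha5 read 2.96, 3.24, 3.11, 3.21 and 3.03 in knockout basal dishes, 2.90, 2.85, 2.82, 2.79 and 2.94 at 24 h and 2.77, 2.86, 3.34, 3.04 and 3.29 at 48 h, every one below the lowest wild-type dish at 3.39. It was lower by 0.66 ± 0.09, 0.65 ± 0.09 and 0.72 ± 0.09 (adjusted p of 2.94e-07, 4.65e-07 and 4.56e-08), and its other probe set gave -0.62, -0.46 and -0.50. Epha4 was lower by 0.47 ± 0.10 at basal (adjusted p = 3.10e-04) and 0.40 ± 0.10 at 24 h (adjusted p = 0.00184). Epha7 was higher on its brightest probe set, by 0.59 ± 0.08, 0.42 ± 0.08 and 0.47 ± 0.08, with wild-type dishes at 1.94 to 2.45 and knockout dishes at 2.48 to 3.06. The 2 other Epha7 probe sets do not show it, at -0.12 and -0.06 at basal, -0.04 and -0.07 at 24 h and 0.19 and -0.07 at 48 h, and the mean of the 3 ended each genotype call (0.13, 0.10 and 0.20). The Epha7 falls after BDNF were likewise seen on the brightest probe set alone, so that Epha7 results hold for 1 probe set.

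Sema3a read 2.27, 2.16, 2.35, 2.28 and 2.20 in wild-type basal dishes and 1.92, 1.89, 1.77, 2.05 and 1.83 in knockout ones, without overlap. It was lower in the knockout by 0.36 ± 0.08 at basal (adjusted p = 0.0010), 0.57 ± 0.08 at 24 h (adjusted p = 1.56e-06) and 0.48 ± 0.08 at 48 h (adjusted p = 2.13e-05). With its dimmer probe sets averaged in, the basal difference was -0.04 (adjusted p = 0.863). Other semaphorins were lower at single times or at a pair of them. Sema4f, a transmembrane semaphorin, was lower at basal by 0.61 ± 0.16 (adjusted p = 0.00517) and at 48 h by 0.47 ± 0.16 (adjusted p = 0.0354), the latter lost without wild-type replicate 3 or 5 or knockout replicate 1, 2 or 4 (-0.46 to -0.40, adjusted p up to 0.104). Sema4g was lower at basal by 0.41 ± 0.11 (adjusted p = 0.00601).

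Sema5a was lower in knockout basal dishes by 0.32 ± 0.12 (adjusted p = 0.0344), and Plxnc1, the receptor of Sema7a, by 0.37 ± 0.13 (adjusted p = 0.0293). Sema4b and Sema4d, which are transmembrane semaphorins, were lower at 24 h by 0.52 ± 0.18 (adjusted p = 0.0322) and 0.32 ± 0.12 (adjusted p = 0.0496). Plxna3 was lower at 48 h by 0.24 ± 0.09 (adjusted p = 0.0477). Each of these calls was lost on leaving out single dishes: Sema5a without 6 (wild-type replicates 2, 3 and 5, knockout replicates 2, 4 and 5), Plxnc1 without 5 (wild-type replicates 2 to 4, knockout replicates 1 and 2), Sema4b without 6 (wild-type replicates 1, 3 and 4, knockout replicates 2 to 4), Sema4d without 8 (all but replicate 5 of each genotype) and Plxna3 without 8 (all but wild-type replicate 4 and knockout replicate 5), with adjusted p up to 0.0966, 0.131, 0.115, 0.131 and 0.122. The 3 other Plxnc1 probe sets gave 0.25, -0.11 and 0.13.

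Plxna2 was lower in the knockout after BDNF, though the genotype difference in its response was called at neither time. Knockout dishes read 1.26, 1.14, 1.21, 1.06 and 1.03 at basal, 1.34, 1.29, 1.40, 1.39 and 1.59 at 24 h and 0.98, 1.06, 1.19, 1.46 and 1.86 at 48 h. The last group is widely spread (SD 0.36), and its highest dish reaches the wild-type 48 h range. The knockout was lower by 0.39 ± 0.11 at 24 h (adjusted p = 0.00696) and 0.66 ± 0.11 at 48 h (adjusted p = 1.16e-05). At basal the difference was not called, but knockout dishes already lay toward lower values (limma, unadjusted p under 0.05). Plxnb2 was higher in the knockout by 0.28 ± 0.08 at 24 h (adjusted p = 0.00873) and 0.24 ± 0.08 at 48 h (adjusted p = 0.0288). The 48 h call of Plxnb2 was lost without wild-type replicate 3 or 5 or knockout replicate 4 or 5 (0.18 to 0.22, adjusted p up to 0.122), and with replicates 1 and 2 alone the difference was -0.0070.

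**Figure D3:**
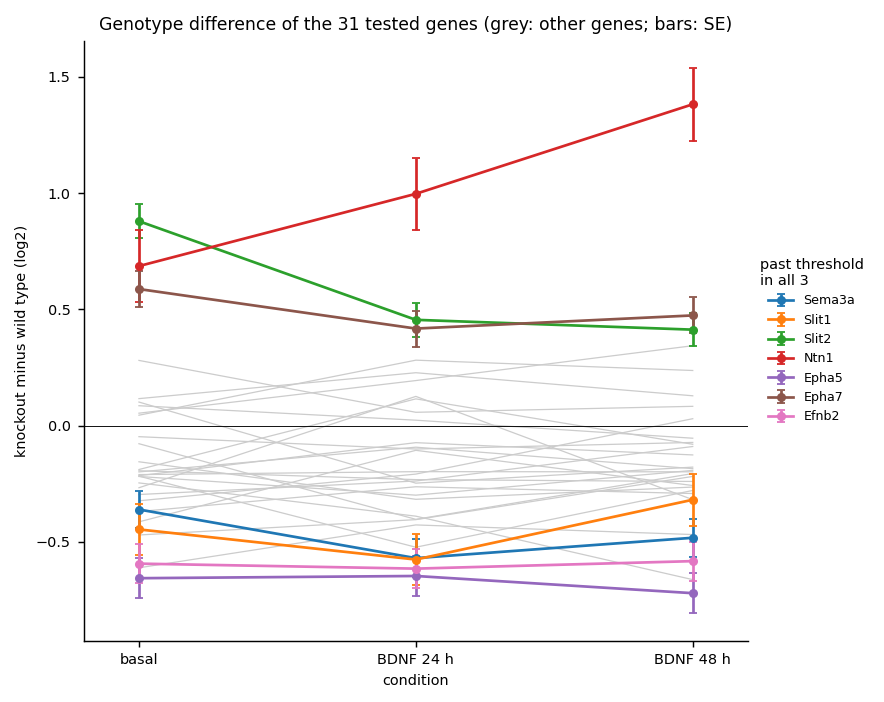
Knockout minus wild-type difference (vertical axis, log2 relative to the array median) of the 31 tested members in basal, 24 h and 48 h dishes (horizontal axis); coloured lines with SE bars are the 7 members called at all 3 times and grey lines the others. Ntn1 lies at 0.69 in basal and 1.38 in 48 h dishes, Slit2 at 0.88 and 0.41, and Efnb2 between -0.61 and -0.58; the Epha7 line is that of its brightest probe set, which its other probe sets do not follow.

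Markers of other cell types moved with genotype. All 7 tested meningeal and mesenchymal markers were higher in knockout basal dishes, with a median difference of 0.96 and a summed signal of 202 to 243 array medians against 100.3 to 122 in wild type; Col3a1 differed by 0.97. All 6 cortical projection neuron markers were lower, with a median of -1.17 and a summed signal of 15.4 to 17.3 against 32.9 to 41.7; Fezf2 differed by -1.47. Both tested choroid plexus markers were lower, Ttr with a difference of -3.56 and Folr1 of -2.30, and the 3 measured markers summed to 3.29 to 43.0 array medians against 139 to 155. The lists stayed in the same direction with every tested member called at 24 h and at 48 h. Slit2, Ntn1, Epha7, Efnb2, Epha5, Sema3a and Slit1 differ between the same dishes, and the part of cell composition in these differences was not tested.

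The other marker lists at basal, knockout against wild type, are to be read beside 27.9% of all tested genes called, 9.2% higher and 18.7% lower. They gave 0 of 7 neuron markers higher and 1 lower, 0 of 6 GABAergic markers higher and 4 lower, 2 of 9 radial glia markers higher and 4 lower, and both tested astrocyte markers lower. The 1 tested oligodendrocyte-lineage marker was lower, 0 of 3 microglial markers and 0 of 3 erythroid markers were called, 1 of the 2 tested endothelial and pericyte markers was higher and 1 lower, and 1 of 6 cell cycle genes was lower. The 7 neuron markers were present throughout, with a summed signal of 229 to 305 array medians over all dishes. At 48 h against basal the 3 erythroid markers fell in both genotypes, with medians of -0.989 and -0.996, and 4 of 6 cortical projection markers fell in wild type and 3 in knockout. Of the 7 meningeal and mesenchymal markers 4 fell and 1 rose in wild type and 2 fell in knockout, and of the 9 radial glia markers 3 fell in each genotype. Of the 6 cell cycle genes 3 fell in wild type, and 1 fell and 1 rose in knockout. Of the 6 GABAergic markers 3 rose in wild type and 2 in knockout, and of the 7 neuron markers 3 rose and 1 fell in wild type and 1 did each in knockout. Of the 3 microglial markers 2 fell and 1 rose in wild type and 1 rose in knockout. The oligodendrocyte-lineage marker rose in both genotypes, 1 of the 2 astrocyte markers rose in each and the other fell in wild type, 1 of the 2 choroid plexus markers fell in wild type, and neither endothelial and pericyte marker was called. All tested genes were called at 36.2% in wild type and 28.9% in knockout. The part of these shifts in the 48 h falls of guidance genes was not tested.

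**Figure D4:**
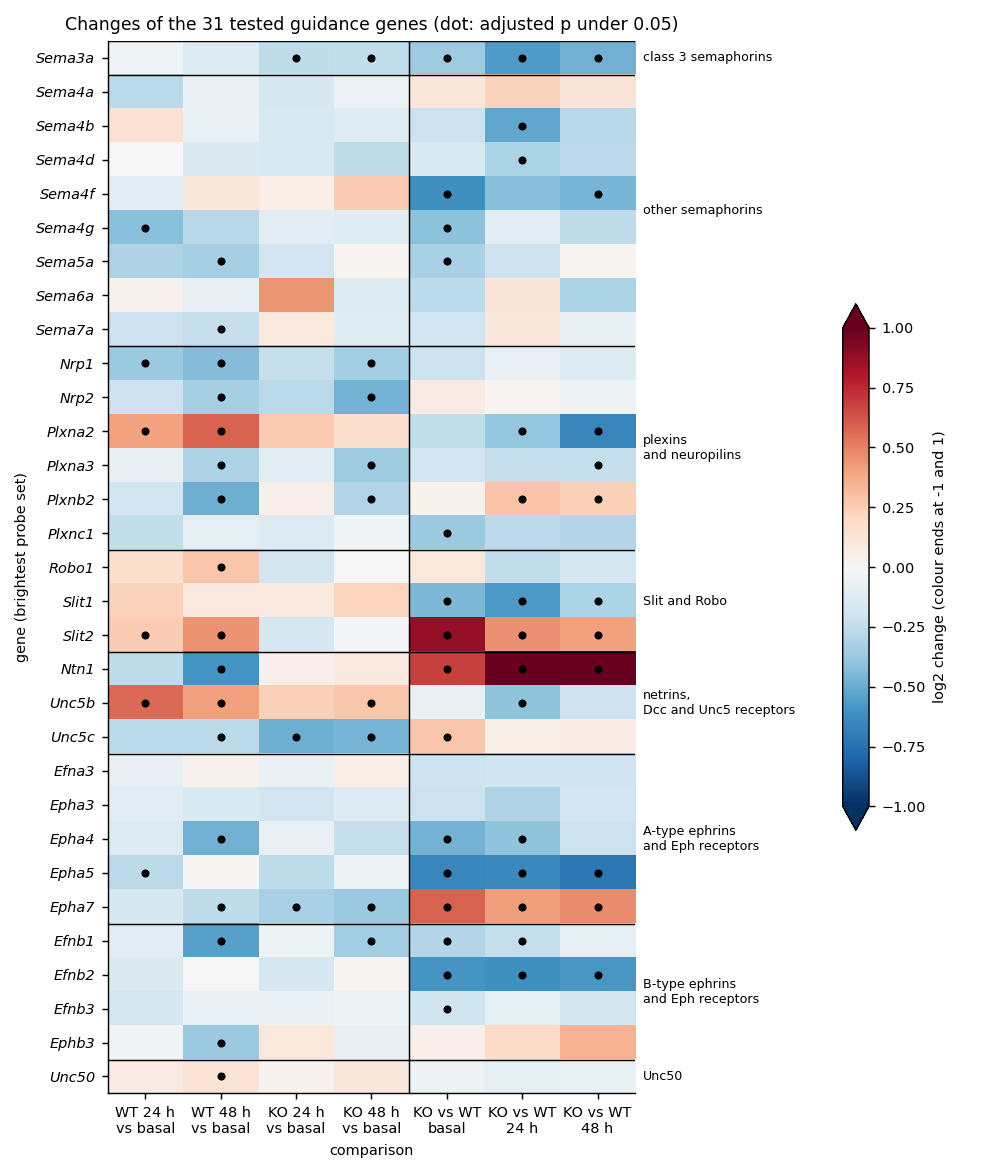
Log2 change relative to the array median (colour, ending at -1 and 1) of the 31 tested members, in rows by family, for 7 comparisons in columns; dots mark an adjusted p under 0.05. At 48 h against basal, 12 of the 17 wild-type dots and 8 of the 9 knockout dots are on falls, 4 of them in each genotype among neuropilins and plexins. With the values as deposited no fall is called there, and Epha7, Unc5c, Plxna3 and Sema7a turn positive in wild type. Dots at the right show Slit2, Ntn1 and Epha7 higher and Efnb2, Epha5, Sema3a and Slit1 lower in the knockout. The Epha7 dots are those of its brightest probe set, which its other probe sets do not follow.

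By family, the called member with the largest change from basal after BDNF was Sema3a among class 3 semaphorins (-0.25, knockout 24 h), Sema4g among other semaphorins (-0.42, wild type 24 h), Plxna2 among plexins and neuropilins (0.59, wild type 48 h), Slit2 in the Slit and Robo group (0.45, wild type 48 h), Ntn1 in the netrin group (-0.60, wild type 48 h), Epha4 among A-type genes (-0.48, wild type 48 h) and Efnb1 among B-type genes (-0.54, wild type 48 h). At 48 h in wild type the Slit and Robo group had 2 of 3 tested members higher and none lower, and the netrin group had 1 higher and 2 lower of 3. The A-type genes had 2 of 5 lower, the B-type genes 2 of 4 lower and the other semaphorins 2 of 8 lower, with no rise called among them. Over all tested genes 36.2% were called in this comparison, with 15.7% lower and 20.5% higher, so the A-type share (2 of 5) is near that background and that of the other semaphorins (2 of 8) is below it. In knockout dishes the Slit and Robo group had no call at either time. The falls named here are relative to the array median, as above.

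At basal, 2 of the 16 ligands were higher in the knockout and 8 lower, 62.5% called. Of the 14 receptors 2 were higher and 3 lower, 35.7% called. Over all tested genes 27.9% were called, 9.2% higher and 18.7% lower, so the receptor share is near that background. The difference between the ligand and receptor counts was not tested. The 28 members called in at least 1 of the 11 comparisons leave Efna3, Epha3 and Sema4a, which were called in none. The same count was not made for all tested genes, so this number has no background beside it. Epha3, an ephrin-A receptor, averaged 2.28 ± 0.15 (SD, n = 5) in wild-type basal dishes and 2.07 ± 0.16 in knockout ones. Efna3, its ligand class, ranged from -0.63 to 0.58 over all dishes, and Sema4a, a transmembrane semaphorin, from 0.93 to 1.62.

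Lists of genes near these systems held calls in both directions. Of 22 tested genes in a list of other guidance ligands, receptors and adhesion molecules, 5 rose and 3 fell at 48 h in wild type and 3 rose and 5 fell in knockout, with median changes of 0.06 and -0.01. That is 36.4% called in each genotype, beside 36.2% of all tested genes in wild type and 28.9% in knockout, so the wild-type share is at the background. Cntn4, a contactin, rose by 0.83, Nrcam, an adhesion molecule of the L1 family, by 0.73 and Lrig1, a receptor inhibitor, by 0.72 in wild type; in knockout Cntn1 rose by 0.56, Lrig1 by 0.56 and Boc, a co-receptor for hedgehog, fell by 0.42. In knockout against wild-type basal dishes 2 were higher and 5 lower, 31.8% against 27.9% of all tested genes. Of 32 tested intracellular guidance effectors, 6 rose and 4 fell in wild type and 9 rose and 3 fell in knockout at 48 h, with medians of 0.02 and 0.06. These are 31.2% and 37.5% called, beside the same 36.2% and 28.9%. Vav3, a guanine nucleotide exchange factor, rose by 0.59 in wild type and 0.44 in knockout, Chn2, a Rac inhibitor of the chimaerin group, by 0.45 and 0.55, Trio, an exchange factor downstream of Dcc, fell by 0.33 in wild type, and Nck1, an adaptor, rose by 0.38 in knockout. At basal 3 effectors were higher and 10 lower in the knockout, 40.6% against 27.9%.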

How the data were processed

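RNA from 30 dishes was hybridized to 1 array each. Intensity values on a linear scale were deposited by the authors, computed with MAS5 per the submitters' processing notes; the software version is not given in the sources used here. The series text describes median scaling and selection of present probes, and the deposited values show neither (medians of 81.9 to 138, 22690 probe sets). Each array was therefore divided by its median, values under 0.1 of it were raised to that floor, and log2 was taken. Symbols are those of the platform annotation: 20393 probe sets have 1 symbol, 691 several and 1606 none, and only the first kind was used, with the brightest probe set per gene. All 55 members were found in the RefSeq gene table and no symbol changed. Arrays carry no read depth, so their number, 5 per group, limits the precision.

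With limma 3.58.1 (R 4.3.3), a linear model of 6 group means over the 30 arrays, with empirical Bayes and an intensity trend, was applied to the 7436 genes in the upper 60% by mean signal. It gave 11 comparisons, two-sided, adjusted by the Benjamini-Hochberg method within each. The script was tested on simulated data. Members, gene lists (2 pathway lists and 12 marker lists) and tests were chosen with earlier results of these data known. Named are, per comparison, up to 6 rises and 6 falls, the leading member of each family, and up to 3 genes of each pathway list; further members are named, after their values were seen, so that each called member is accounted for. Alternatives changed the scaling, floor, filter, probe set rule, arrays in the fit, replicate block and Gapdh covariate, and left out each dish; fits with 48 h replicates 1 and 2 or 3 to 5 alone were chosen after seeing the data.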

Additional observations from a re-analysis of the deposited data

Results flagged for a closer look

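In groups of 5 dishes, the highest or lowest dish was compared with its nearest neighbour by Dixon's ratio, for 31 genes in 6 groups. Of these 186 groups 11 held a dish that stood apart, and chance gives about 1 in 20, or 5%. Dishes above the rest were Efnb1 in knockout basal replicate 1 (1.63, others 1.56 to 1.57), Efnb3 in wild-type 48 h replicate 2 (3.15, others up to 2.87), Epha4 in wild-type basal replicate 1 (2.57, others up to 2.33), Ntn1 in wild-type basal replicate 5 (0.16, others up to -0.18), Plxnc1 in wild-type 48 h replicate 5 (3.73, others up to 3.38) and Slit2 in knockout 48 h replicate 5 (4.13, others up to 4.00). Dishes below the rest were Efnb3 in knockout 48 h replicate 2 (2.50, others from 2.73), Robo1 in knockout basal replicate 5 (2.07, others from 2.50), Sema4b in wild-type 48 h replicate 5 (0.35, others from 0.87), Unc50 in wild-type 48 h replicate 1 (4.84, others from 4.93) and Unc5c in wild-type basal replicate 4 (1.69, others from 2.09).

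The 48 h response of Slit2 was called different between the genotypes by the interaction test, at -0.47 in knockout relative to wild type (adjusted p = 0.0490, limma). That call sits at the threshold and was lost on leaving out any 1 of 19 of the 20 dishes. Wild-type basal dishes are the lowest Slit2 group, at 3.16 ± 0.23 (SD, n = 5), and knockout basal dishes are at 4.04 ± 0.09.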

How the results depend on the processing

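Of the 83 called member results, 23 kept their call in every alternative run, 60 lost it in at least 1, and 54 kept it on leaving out any single dish. The shares of all tested genes called under the alternatives were not counted. With the values as deposited 3 members were called in wild type at 24 h, 10 at 48 h and 15 between these times, 1, 5 and 6 in the knockout, 7, 9 and 7 between genotypes at basal, 24 h and 48 h, and 0 for the 48 h interaction; the direction then reversed in wild type at 48 h for Epha7 (0.056), Unc5c (0.045), Plxna3 (0.0030) and Sema7a (0.079) and between times for Plxnb2 (0.016). Sema3a in knockout at 48 h reversed with the mean of probe sets (0.033), and Plxnb2 between genotypes at 48 h with replicates 1 and 2 alone (-0.0070). The cause was not tested. With the Gapdh ratio as a covariate 10 members were called in wild type at 48 h and 5 in the knockout, 0 between times in either genotype and 0 for the 48 h interaction. The ratio largely goes with the 48 h groups, so these losses do not tell the ratio from the 48 h difference. With 48 h replicates 1 and 2 alone there were 9 calls in wild type at 48 h, 0 between times, 7 between genotypes and 0 for the interaction; with replicates 3 to 5 alone there were 6 between times in the knockout and 0 for the interaction. Quantile normalization and 75th-percentile scaling called 5 in knockout at 24 h, and the latter 5 between times. A fit to only the arrays compared called 1 between times in the knockout and 0 for the 48 h interaction, as did no filter, the upper 40% of genes and the mean of probe sets for the interaction (0). Same-numbered dishes within a genotype did not pair, with 30 correlations of deviations from -0.17 to 0.22, of which 7 were over 0.1. Pairing across genotypes was not part of that check, and 48 h replicates 1 and 2 correlated across genotypes at 0.12 to 0.25. A replicate block called 5 members in knockout at 24 h in place of 3 and 1 for the 48 h interaction. Leaving out single dishes gave 4 to 9 calls in wild type at 24 h, 12 to 17 at 48 h and 1 to 4 between times; 2 to 5, 7 to 10 and 1 to 3 in the knockout; 12 to 14, 11 to 15 and 7 to 11 between genotypes; and 0 to 1 for each interaction. Of the 83 called results, 33 had another probe set in the upper signal range, 19 of them with the same call, 7 with the opposite sign and 0 with an opposite call.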

Other observations

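Members under the signal filter were also fitted with no filter on low genes. Sema3c, a secreted class 3 semaphorin, was higher in the knockout by 0.80 at basal, 1.03 at 24 h and 0.93 at 48 h (limma, adjusted p of 9.47e-04, 4.91e-05 and 1.76e-04). It lay between -1.58 and -0.55 in the 15 wild-type dishes and between -0.47 and 0.35 in the 15 knockout dishes, which did not overlap. Slit3, a Slit ligand, was 1.25 higher at basal (adjusted p = 0.0463) and Sema3f, the ligand of Nrp2, 1.09 higher at 48 h (adjusted p = 0.0475), without a gap between the groups. Epha6 was lower in the knockout at 24 h (-0.46, adjusted p = 0.0364). After 48 h of BDNF in wild type Efna4 (-0.45, adjusted p = 0.0405) and Epha1 (-0.78, adjusted p = 0.0336) were lower than basal relative to the array median, Epha1 also lower than at 24 h (-0.84, adjusted p = 0.0446), and Sema6c was lower in the knockout (-1.45, adjusted p = 0.0174). These signals are dim, and values near the floor understate a change.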
